A study of Pardosa pseudoannulata with 16 samples.

Results

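The clusters described here are assembled sequences of the wolf spider Pardosa pseudoannulata whose RNA was listed higher in every UH library than in any library of the other groups. They are 100 of the 136360 sequence clusters in the table. The members were chosen from the values themselves, as log2(FPKM + 1). FPKM counts the fragments of a cluster relative to a length in kilobases and to the size of the library. The length that fitted the low values was 256 to 293 bases shorter than the listed length of a cluster. A cluster qualified where its lowest UH value exceeded the highest of the 12 UM, UL and Ck values and its lowest UM value was not above the highest of the 8 Ck and UL values. In 570 clusters the lowest UH value was above the 12 others, the bound on UM removed 28 of these, and 542 met both conditions. They were ranked by the gap between the lowest UH value and the highest other value, and the first 100 were taken. Being high in UH is thus how the members were picked. It is given below as a description, and nothing is supported with it.

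Whole spiders were sequenced as poly-A RNA in 4 groups, UH, UM, UL and Ck, with 4 libraries each. The design text describes adult spiders collected in rice fields and kept on soil with urea at 0, 200 or 400 mg/kg for 30 days. It does not tie these 3 concentrations to the 4 groups, and the labels give all samples, Ck included, the same treatment, so no concentration or order was assigned; Ck was taken as the control by its name. The labels give neither the sex of the spiders nor whether a library holds 1 animal or several. The p-values here thus set group differences only against the spread among these libraries, and that spread may be technical.

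Urea is a nitrogen fertiliser that soil microbes break down to ammonia. Spiders excrete most of their waste nitrogen as guanine, a purine that costs little water to void, and wolf spiders hunt on the ground surface, in contact with treated soil. In a transcriptome assembled without a genome, a cluster groups sequences that share fragments; a gene can be split over several clusters. No gene name or sequence comes with the clusters, so the members are described by their name, length and levels, and no function is given for any of them.

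Depth was estimated from the steps between low FPKM values at 16.64 to 20.99 M (mega) fragments per library. Between 76712 and 97015 clusters were listed above 0 in a library. The other groups can be set against UH in the same way: 164 clusters had their lowest UM value above all 12 other libraries, 408 their lowest UL value and 143 their lowest Ck value, beside the 570 of UH. The median gap in these sets was 0.12 for UH, 0.08 for UM, 0.04 for UL and 0.12 for Ck on the log2(FPKM + 1) scale, so that in most of them the group and the other libraries nearly touched.

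**Figure D1:**
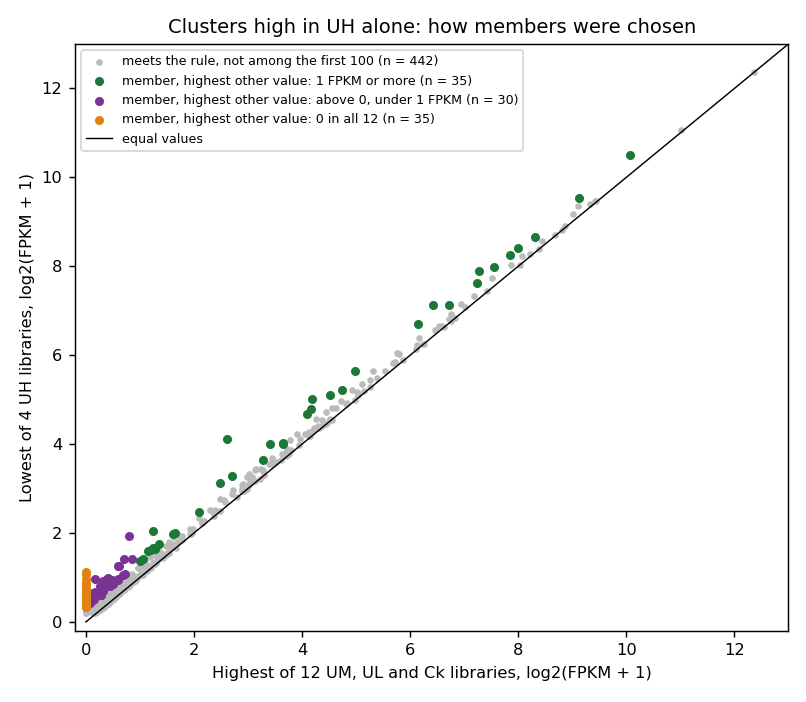
Lowest value in the 4 UH libraries against the highest value in the 12 UM, UL and Ck libraries, both as log2(FPKM + 1), for the 542 clusters that met the rule; the line marks equal values. Coloured points are the 100 members, split by their highest value outside UH, and grey points are the other 442; most points lie close above the line at every level.

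The gap that ranked the members was small for most of them. It was over 1 for the first 4, with Cluster-9253.33648 at the top, under 1 from the fifth on and 0.34 for the last. Just inside the limit, Cluster-6413.0 (459 bases) had 0.28, 1.23, 0.27 and 0.28 FPKM in the UH libraries and was listed at 0 in the UM, UL and Ck libraries. Cluster-9253.30886 (959 bases) had 0.53 to 1.47 FPKM in UH, against at most 0.21 FPKM in the other groups. Cluster-9253.13861 (1502 bases) had 0.53 to 1.21 FPKM in UH and likewise at most 0.21 FPKM elsewhere. The 3 clusters just outside looked no different in kind. Cluster-9253.17851 had 0.58 to 1.63 FPKM in UH against at most 0.25 FPKM elsewhere, and Cluster-9253.35566 had 0.74 to 1.83 FPKM in UH against at most 0.38 FPKM. Cluster-9253.36950 (2225 bases) had 162.08, 213.73, 248.87 and 48.66 FPKM in UH, against a highest value of 38.64 FPKM, in UM. The limit of 100 therefore cuts through a continuous ranking.

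The members fall into 3 kinds by how much of them was found outside UH, a split made after their values were seen. In 35 members at least 1 of the 12 other libraries reached 1 FPKM; these are called measured elsewhere. In 30 the highest other value was above 0 and under 1 FPKM; these are called faint elsewhere. The last 35 were listed at 0 in all 12 UM, UL and Ck libraries. Mean UH levels ran from 0.473 to 5519 FPKM over the 100 members, with a median of 1.62 FPKM. Only 12 members averaged over 100 FPKM in UH, and all 12 were measured elsewhere.

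**Figure D2:**
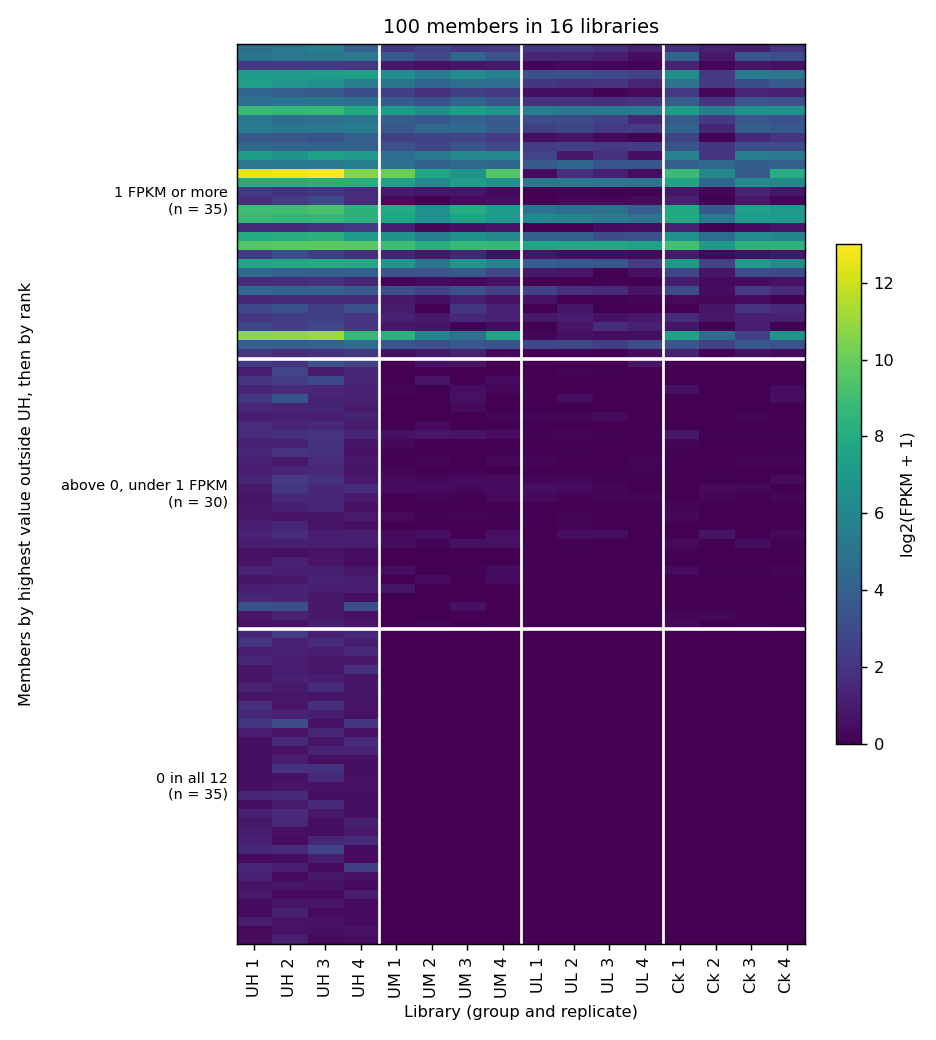
The 100 members (rows) in the 16 libraries (columns, by group and replicate), coloured by log2(FPKM + 1); rows are split by the highest value outside UH and sorted by rank within each block. In the top block the median level is highest in UH and intermediate in UM and in Ck replicates 1, 3 and 4. It is lowest in UL and Ck replicate 2, and single rows differ widely in level. The lower blocks are close to 0 outside UH and low within it.

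The kinds differed in length and in the number of fragments behind them. Members measured elsewhere had a median length of 1691 bases, those faint elsewhere 759.5 bases and those listed at 0 407.0 bases, against 599 bases for all clusters in the table. The median was 1227 bases for all clusters that entered the tests below, as did all 35 members measured elsewhere. The first number of the cluster name is the same for 102255 clusters of the table. It was found in 34 of the 35 members measured elsewhere, in 28 of the 30 faint elsewhere and in 14 of the 35 listed at 0. Of the 100 members, 44 had at least 1 FPKM in at least 4 libraries and entered the tests below. They were all 35 measured elsewhere, 7 of those faint elsewhere and 2 of those listed at 0. For 18 of the 44 fewer than 4 of the 12 other libraries reached 1 FPKM, so they passed this filter only through UH.

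Among the members listed at 0 outside UH, few fragments carried the pattern. In 28 of the 35, the lowest UH library held a single estimated fragment, and the 4 UH libraries together held a median of 9.07 fragments. Cluster-4834.0 (318 bases, rank 5) had 0.96, 1.31, 0.99 and 2.05 FPKM in UH, which amounts to 1, 1, 1 and 2 fragments. Cluster-1383.0 (330 bases) had 1.62, 1.08, 0.83 and 0.85 FPKM in UH, which amounts to 2, 1, 1 and 1 fragments. A count of 0 allows up to 3 fragments. In 1 of the 35 members, Cluster-9253.11746, the lowest UH value was above what 3 fragments would be worth in each of the other libraries. For the remaining 34 a difference between UH and the other groups was not detectable library by library at this depth.

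Cluster-9253.11746 (533 bases, rank 3) had 1.83, 3.64, 1.18 and 1.79 FPKM in the UH libraries and was listed at 0 in all UM, UL and Ck libraries. These values stand for 9, 17, 6 and 9 fragments. Cluster-9253.88103 (366 bases, rank 4) had 3.22, 1.32, 2.16 and 1.10 FPKM in UH, or 6, 2, 4 and 2 fragments, and was likewise listed at 0 elsewhere. These were the 2 members listed at 0 that entered the tests. Cluster-9253.13604, Cluster-1506.0 and Cluster-9253.12134, at ranks 8, 10 and 12, averaged 1.21, 0.968 and 1.27 FPKM in UH. Cluster-9253.12903 (435 bases) spread most among these members, with 1.60, 1.08, 0.31 and 4.48 FPKM in the UH libraries (coefficient of variation 0.975). Cluster-1770.0 (449 bases) had 0.30, 1.31, 0.29 and 0.29 FPKM in UH, so that 1 library stands for 4 fragments and the other 3 for 1 each. Over all clusters, 48 were above 0 in every UH library and listed at 0 in the 12 others. The same count was 18 for UM, 9 for UL and 34 for Ck.

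**Figure D3:**
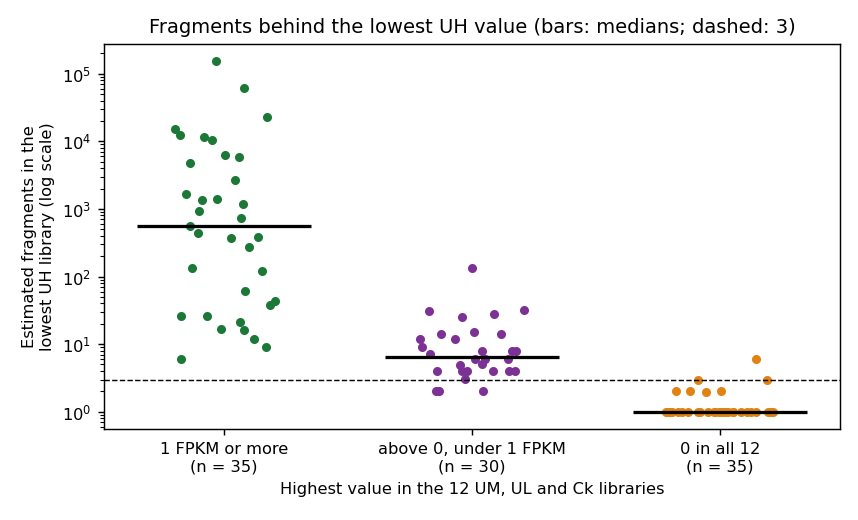
Estimated fragments in the lowest of the 4 UH libraries for each member (points, log scale), by the highest value in the 12 other libraries; bars are medians and the dashed line marks 3 fragments. The medians are 558.2 fragments for members measured elsewhere, 6.53 for those faint elsewhere and 1 for those listed at 0.

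The 30 members faint elsewhere had a median mean level of 1.25 FPKM in UH. Cluster-9253.17610 (361 bases, rank 2) had 3.95, 2.81, 9.08 and 4.65 FPKM in UH. It had 0, 0.53, 0.63 and 0 FPKM in UM, 0.73 FPKM in UL replicate 4 and 0 in the other UL libraries and in Ck. Its UH values stand for 4 to 16 fragments. Cluster-9253.9214 (1077 bases, rank 11) had 1.13, 5.52, 0.95 and 1.79 FPKM in UH, against at most 0.13 FPKM in any other library, so that UH replicate 2 stood above the other 3. Cluster-9253.13509 (382 bases) had 3.26, 9.47, 1.39 and 1.42 FPKM in UH, against single values of 0.52 FPKM in UM, 0.42 FPKM in UL and 0.42 FPKM in Ck. It had the widest UH spread of all 100 members (coefficient of variation 0.984). Cluster-9253.60774 (4422 bases), named after its values were seen, had the most fragments of this kind, 132.7 in its lowest UH library. It had 2.17, 2.51, 2.96 and 1.65 FPKM in UH, against 0.37 to 0.74 FPKM in UM, 0.01 to 0.17 FPKM in UL and 0.05 to 0.81 FPKM in Ck. In 26 of the 30 the lowest UH value was above what 3 fragments would be worth in each of the 12 other libraries. That bound is for a count of 0, and these members were by definition above 0 somewhere outside UH. The count therefore cannot tell whether their difference was detectable.

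The 35 members measured elsewhere held the highest levels. Their mean UH level ran from 1.88 to 5519 FPKM (median 28.9). The ratio of the mean UH to the mean Ck level ran from 1.91 to 27.2 (median 3.93), and that of the mean UH to the mean UM level from 1.77 to 15.6 (median 2.94). In whole spiders, more cells of a type and more RNA per cell cannot be told apart. The lowest UH value was at least 2 times the highest other value in 2 of the 35, Cluster-9253.33648 and Cluster-9253.47350. In the other 33 the margin was smaller. The median level of the 35 was 26.5, 24.61, 27.03 and 21.98 FPKM in UH replicates 1 to 4, 10.12, 8.37, 11.49 and 8.27 FPKM in UM, 2.79, 2.31, 2.12 and 0.84 FPKM in UL, and 9.9, 1.52, 7.61 and 7.64 FPKM in Ck. UM and 3 of the 4 Ck libraries thus had like medians, and Ck replicate 2 lay near the UL libraries.

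Cluster-9253.33648 (1691 bases), the first in rank, had 26.50, 37.71, 48.45 and 16.27 FPKM in the UH libraries. It had 3.18, 5.09, 3.16 and 3.60 FPKM in UM, 3.28, 3.64, 2.46 and 1.26 FPKM in UL, and 2.31, 1.27, 1.07 and 2.83 FPKM in Ck. UH thus stood well apart; UL overlapped both UM and Ck, and all UM values were above all Ck values. The difference was 3.47 ± 0.31 between UH and Ck and 2.72 ± 0.31 between UH and UM on the log2(FPKM + 1) scale (SE from the fit of all libraries), and 3.13 ± 0.31 between UH and UL. Cluster-9253.47350 (6551 bases, rank 9), among the longest members, had 3.44, 3.69, 3.96 and 3.11 FPKM in UH. It had 0.80, 0.48, 0.66 and 0.92 FPKM in UM, 0.17, 0.24, 0.17 and 0.11 FPKM in UL, and 1.36, 0.17, 0.75 and 0.54 FPKM in Ck. Here the UL libraries were the lowest, and Ck replicate 2 lay among them.

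Cluster-9253.41745 (2602 bases, rank 7) had the steadiest UH values of all 100 members, with a coefficient of variation of 0.0432. They were 31.47, 33.01, 34.70 and 34.22 FPKM. It had 11.96, 5.91, 17.23 and 8.27 FPKM in UM, 1.65, 1.54, 1.00 and 0.35 FPKM in UL, and 16.85, 0.84, 10.56 and 7.64 FPKM in Ck. Ck replicate 2 again lay among the UL libraries, and the other 3 Ck libraries overlapped UM. Cluster-9253.47210 (1958 bases) averaged 802.6 ± 46.5 FPKM in UH, 411.8 ± 87.2 FPKM in UM, 211.9 ± 23.3 FPKM in UL and 341.0 ± 172.8 FPKM in Ck (SD, n = 4). Cluster-9253.46018 (1504 bases) averaged 273.3 ± 18.7 FPKM in UH, 121.5 ± 50.4 FPKM in UM, 35.4 ± 2.90 FPKM in UL and 88.5 ± 70.1 FPKM in Ck (SD, n = 4). Ck spread widely in both: replicate 1 had 558.85 and 185.97 FPKM, and replicate 2 had 136.01 and 19.28 FPKM.

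The levels of Cluster-9253.47694 (1832 bases) were 497.8 ± 112.6 FPKM in UH, 187.7 ± 76.4 FPKM in UM, 24.0 ± 7.34 FPKM in UL and 140.2 ± 96.1 FPKM in Ck (SD, n = 4). Cluster-9253.48700 (5970 bases), another of the longest members, averaged 17.7 ± 2.30 FPKM in UH, 7.47 ± 1.84 FPKM in UM, 4.01 ± 0.354 FPKM in UL and 6.77 ± 2.56 FPKM in Ck (SD, n = 4). In both clusters UL had the lowest mean, and the mean of UM lay between those of UH and Ck.

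The most abundant members were Cluster-9253.47406 (5611 bases, rank 53) and Cluster-9253.48358 (8023 bases, rank 90, the longest). Cluster-9253.47406 had 5908.06, 6795.30, 7914.64 and 1459.06 FPKM in UH. It had 1070.92, 223.56, 106.74 and 727.19 FPKM in UM, 0.35, 2.31, 1.17 and 0.37 FPKM in UL, and 458.47, 63.96, 11.98 and 275.88 FPKM in Ck. Within UH, replicate 4 was far below the other 3 and close to UM replicate 1. Cluster-9253.48358 had 1788.24, 1917.66, 2150.84 and 406.01 FPKM in UH and 317.44, 57.75, 27.95 and 189.26 FPKM in UM. It had 0.15, 0.51, 0.37 and 0.40 FPKM in UL and 169.87, 23.85, 4.97 and 103.94 FPKM in Ck. UL was near 0 in both clusters, while the 4 Ck libraries spread over an order of magnitude.

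These 2 clusters ran in parallel. The ratio of the first to the second was 3.30 to 3.68 in the UH libraries, 3.37 to 3.87 in UM and 2.41 to 2.70 in Ck. In UL, where the second cluster was near 0, it ran from 0.925 to 4.53. Pearson's r of their log2(FPKM + 1) values was 0.995 over the 12 UM, UL and Ck libraries, as a description: the points share the library and its scaling, and 1 transcript can be split over 2 clusters, so the pair is not counted as independent. All 100 members together took 0.609 to 1.96% of the FPKM sum in UH libraries, 0.146 to 0.422% in UM, 0.0504 to 0.0705% in UL and 0.0601 to 0.321% in Ck. Without the pair the shares were 0.379 to 0.556% in UH, 0.112 to 0.235% in UM, 0.0503 to 0.0701% in UL and 0.0476 to 0.241% in Ck.

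**Figure D4:**
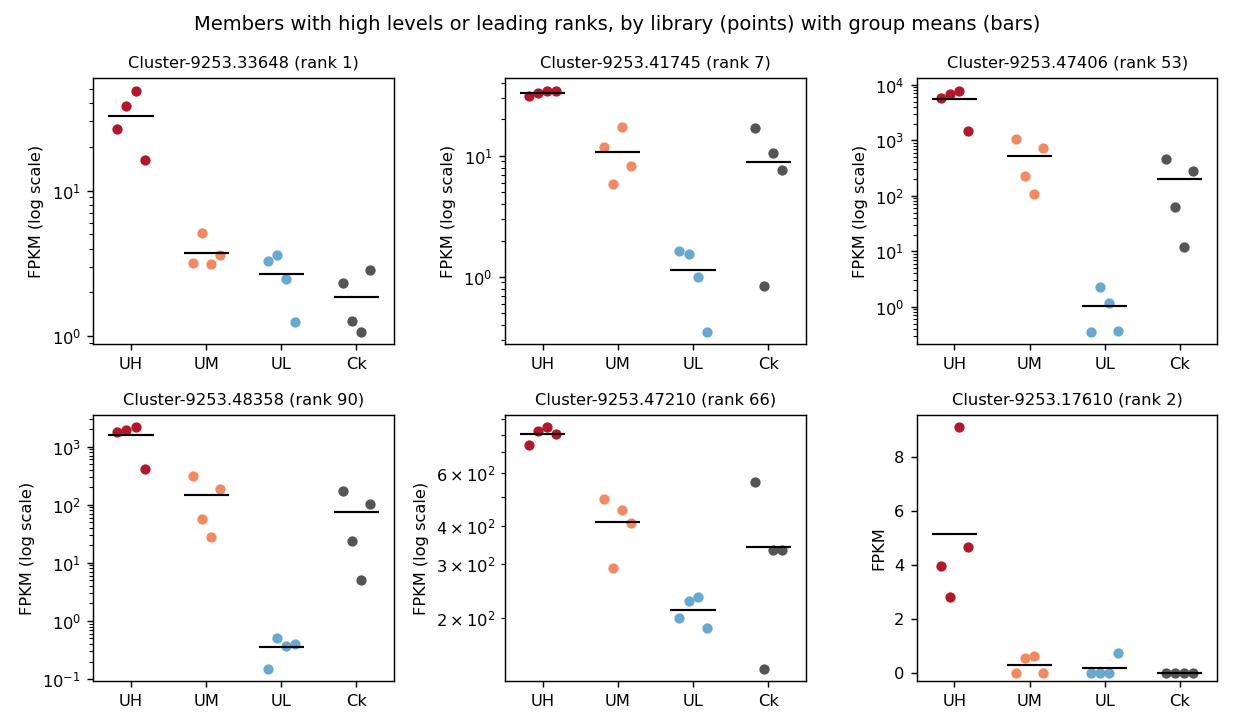
FPKM of 6 members in each library (points) with group means (bars), for UH, UM, UL and Ck with n = 4 libraries each; 5 panels have a log axis and the last a linear one. UH stands above all other libraries by construction. The UL mean is the lowest in Cluster-9253.41745, Cluster-9253.47406, Cluster-9253.48358 and Cluster-9253.47210.

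Within UH the members did not all rank the libraries alike. Among the 35 measured elsewhere, UH replicate 4 was the lowest UH library in 19 and UH replicate 3 the highest in 16. Over all 36003 tested clusters, UH replicate 4 was the lowest in 19.5% and the highest in 37.8%, and UH replicate 3 was the highest in 21.4%. The coefficient of variation in UH had a median of 0.21 in members measured elsewhere, 0.452 in those faint elsewhere and 0.552 in those listed at 0. The highest and the lowest UH value were within 1.5 times of each other in 22 of the 100 members and over 4 times apart in another 22.

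The 3 contrasts that involve UH were used to choose the members. The selection largely fixed the counts below, which are no test of the members, and nothing is read from them. With limma and Benjamini-Hochberg adjustment over 36003 clusters, an adjusted p under 0.05 was reached between UH and Ck by 43 of the 44 tested members, higher in UH, and in this direction by 3.39% of all tested clusters. The count was 44 of 44 between UH and UL (8.87% of all) and 27 of 44 between UH and UM (0.278% of all). The median difference of the tested members was 1.77 between UH and Ck, 2.23 between UH and UL and 1.36 between UH and UM on the log2(FPKM + 1) scale. Over all tested clusters these medians were -0.15, -0.27 and -0.19; median ratio scaling moved them to -0.00, -0.05 and 0.01, and the members' medians to 1.97, 2.42 and 1.61. The count between UH and UM was 14 without UM replicate 2, 14 without UH replicate 1 and 17 without UH replicate 3. Between UH and Ck it was 28 in a fit of those 2 groups alone.

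The rule did not set UL against Ck directly, but it is not free of their values. Its bound holds the lowest UM value at or under the highest of the Ck and UL values. Where all UL values lay under all UM values, the highest Ck value therefore had to lie above all UL values. All UL values lay under all UM values in 24 of the 35 members measured elsewhere. The lean of UL against Ck is thus partly built in and is given as a description. Among the members measured elsewhere, most had a lower mean level in UL than in Ck. The mean UL level was under the mean Ck level in 33 of the 35 members measured elsewhere (94.3%), against 36.5% of all tested clusters. The 2 exceptions were Cluster-9253.33648 and, named after its values were seen, Cluster-9253.15501. The mean was lower in UL in 12 of the 30 members faint elsewhere, and the other 35 members were listed at 0 in both groups. The tested members had a median UL minus Ck difference of -0.54, against 0.10 over all tested clusters. After median ratio scaling these medians were -0.64 and 0.01, and after quantile normalization -0.58 and 0.03, so the direction did not turn. Still, limma called 0 of the 44 tested members between UL and Ck, where 0.0167% of all clusters were called (6 of 36003). An unadjusted p under 0.05 was reached by 20 of the 44, all lower in UL, and by 16.8% of all clusters in either direction. The lowest adjusted p among the members was 0.0824, shared by Cluster-9253.47406 (difference -5.74 ± 0.99) and, named after its values were seen, Cluster-9253.48199 (-2.27 ± 0.41). The next was 0.099 for Cluster-9253.48358 (-4.90 ± 0.95).

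Of the 44, 18 entered only through UH. The comparison was therefore repeated, after the data were seen, on the 33620 clusters that reached 1 FPKM in 4 or more of the 12 libraries outside UH, which included 26 members. limma then called 0 of the 26 members, and 6 of all these clusters. An unadjusted p under 0.05 was reached by 17 of the 26, all lower in UL, and by 17.5% of all. Their median difference was -1.19, against 0.11 over all.

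The count of 0 between UL and Ck depended on Ck replicate 2. That library was the lowest of the 4 Ck libraries in 28 of the 35 members measured elsewhere (80.0%), against 24.4% of all tested clusters. Leaving it out therefore raises the Ck mean of these members by construction, and the counts without it only show how far the result rests on 1 library. They were 22 of the 44 tested members called between UL and Ck, all lower in UL, where 4.97% of all clusters were called lower. Under the filter outside UH, 20 of the 26 members were called. There, 2170 of all 33620 clusters were called in either direction. With all libraries both counts of members were 0. The difference of Cluster-9253.41745 was -1.87 ± 0.53 with all libraries and -2.55 ± 0.32 without Ck replicate 2, and that of Cluster-9253.47694 was -1.94 ± 0.70 and -2.90 ± 0.36. For Cluster-9253.47406 it was -5.74 ± 0.99 and -5.95 ± 1.09. Leaving out Ck replicate 3 gave 2 calls, where 0.0889% of all clusters were called, and leaving out any other 1 library gave 0. Ck replicate 2 also had the most clusters listed above 0 of all 16 libraries (97015); the part this plays in its low values here was not tested.

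Counted by overlap, all 4 UL values were under all 4 Ck values in 7 of the 35 members measured elsewhere, and in 1.45% of all tested clusters. They were under Ck replicates 1, 3 and 4 in 25 of the 35, and in 8.89% of all tested clusters. Relative to its own mean over the 12 UM, UL and Ck libraries, the median member of the 35 lay 0.42 to 0.92 lower in the UL libraries and 0.31 to 1.00 higher in the UM libraries on the log2(FPKM + 1) scale. In Ck it lay 0.86, 0.33 and 0.29 higher in replicates 1, 3 and 4 and 0.66 lower in replicate 2.

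**Figure D5:**
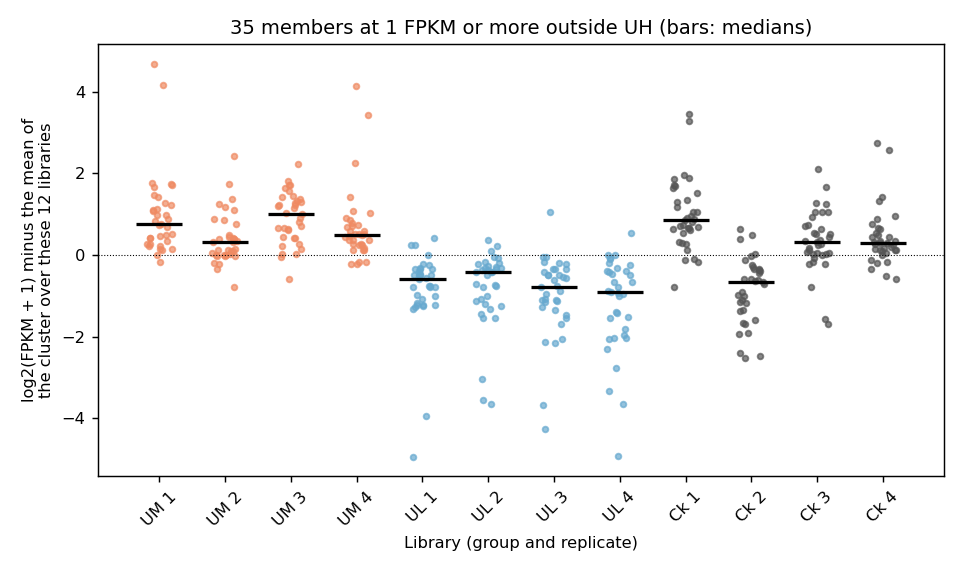
The 35 members measured elsewhere in the 12 UM, UL and Ck libraries: log2(FPKM + 1) minus the cluster's mean over these 12 libraries (points are members, bars are medians). The medians are above 0 in all 4 UM libraries and in Ck replicates 1, 3 and 4, and below 0 in all 4 UL libraries and in Ck replicate 2.

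In 26 of the 35 members measured elsewhere the means ran in the order UM, Ck, UL from high to low, as in 16.2% of all tested clusters; among the 30 faint elsewhere they did so in 6. The rule bounds the lowest UM value from above, so the contrasts of UM are also given as a description. Between UM and Ck, limma called 0 of the 44 tested members (0.1% of all clusters were called), and 7 (15.9%) had an unadjusted p under 0.05, as had 11.5% of all clusters. Their median difference was 0.35, but 0.05 without Ck replicate 2. For the 26 members that did not enter through UH, the median was 0.69, and 0.12 without Ck replicate 2. Of these 26, 6 had an unadjusted limma p under 0.05, as had 11.8% of all clusters under that filter. Without Ck replicate 2 this was 2 of the 26, and 11.5% of all. Between UM and UL, 13 of the 44 were called, all higher in UM, where 2.62% of all clusters were called higher. Cluster-9253.47406 and Cluster-9253.48358 were among them, with differences of 7.60 ± 0.99 and 6.22 ± 0.95 (limma adjusted p = 0.00846 and 0.0198), as were Cluster-9253.41745 (2.43 ± 0.53, adjusted p = 0.0305) and Cluster-9253.47694 (2.87 ± 0.70, adjusted p = 0.0411). All 4 UM values were above all 4 UL values in 24 of the 35 members measured elsewhere, and in 8.16% of all tested clusters. The count of 13 was 7, 5, 1 and 3 without UL replicates 1, 2, 3 and 4, was 1 and 2 without UM replicates 1 and 3, and was 23 without Ck replicate 2. The share of all clusters called in either direction moved as well, from 3.22% with all libraries. It was 0.381, 0.242, 0.0444 and 0.103% without UL replicates 1, 2, 3 and 4. Without UM replicates 1 and 3 it was 0.0556 and 0.0778%, and without Ck replicate 2 it was 5.71%.

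The members measured elsewhere also varied together outside UH. Over the 12 UM, UL and Ck libraries the median Pearson correlation between 2 of these 35 clusters was 0.72, with quartiles of 0.51 and 0.87, and 237 of 595 pairs were over 0.8. The points of each pair share their libraries and scaling, and group differences enter the value. The same value was not computed for other clusters of like level, so it is not shown to be particular to these members. Among the 30 members faint elsewhere the median was 0.00 (quartiles -0.19 and 0.30), where most values outside UH stand for few fragments. Within Ck, replicate 1 was the highest library in 26 of the 35, and within UM, replicate 2 was the lowest in 22. The highest value outside UH came from UM replicate 3 in 14, from Ck replicate 1 in 10 and from UM replicate 1 in 5 of the 35. For these counts of highest and lowest libraries, the shares over all tested clusters were not computed.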

How the data were processed

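RNA was measured in 16 libraries of whole spiders (4 groups, n = 4), as poly-A RNA copied with random primers, per the labels' protocols. The authors' deposited table gives FPKM for 136360 clusters, to 2 decimals, and a length for each, taken to be in bases. The assembler, aligner and counter were not given in the sources used here. A mouse genome build, which is not that of the organism, stands in the submitters' processing notes; no coordinates were used. Markers of cell types could not be checked, since the clusters carry no gene names.

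Members and lists were chosen with earlier results of these data known. Ties in the ranking kept the order of the table. Values entered as log2(FPKM + 1); this pseudocount understates the change of low clusters. A cluster was tested where 4 or more libraries reached 1 FPKM (36003 clusters). The model of all 16 libraries was fitted with limma (version 3.58.1, under R 4.3.3) with its trended variance prior, two-sided. Adjustment was by Benjamini-Hochberg per comparison over all clusters tested, with a threshold of 0.05. The fit, the ranking and the depth estimate were first checked on simulated data. Named clusters are ranks 1 to 12 and 98 to 103, the 4 most abundant, the 4 longest, and the 3 with the lowest and the 3 with the highest coefficient of variation in UH; any other is marked.

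FPKM gives no total, so depth was estimated from clusters of 500 to 900 bases, where low values fall on multiples of 1 fragment: 99.1 to 99.3% of values worth up to 10 fragments came out whole within 0.1. The estimate takes 256 to 293 bases off the listed length, depending on the library. A single fragment on a short cluster therefore gives a higher FPKM than the full length would. Below 500 bases, the lowest value shared by at least 3 clusters of a length was taken as 1 fragment. Fragments are estimates, floors from them cover counting error only, and no count model was run. Alternatives were another pseudocount, scaling, filter and set of libraries, a replicate block, and leaving out each library.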

Additional observations from a re-analysis of the deposited data

Results flagged for a closer look

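In groups of 4 libraries, a value was singled out where its gap to the nearest other made up most of the group's range on the log2(FPKM + 1) scale, past Dixon's 95% critical value for 4 samples. Of 74 such groups of the 27 named clusters, 10 had such a value. Chance gives about 1 in 20 groups only for values free of a floor. In 6 of the 10, described last, 3 libraries were listed at 0, so that any value above 0 stood apart by construction; the count of 10 is therefore not set against chance.

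At levels well above the floor 1 value was singled out: Cluster-9253.48358 had 406.01 FPKM in UH replicate 4, below the other 3 UH libraries. Among the clusters just outside the limit, Cluster-9253.35566 had 0.74 FPKM in UH replicate 4, also below the other 3. In Cluster-1770.0 and Cluster-6413.0, UH replicate 2 was above the others at 1.31 and 1.23 FPKM, or about 4 fragments each.

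The other 6 were single libraries above 3 that were listed at 0. Cluster-9253.17610 had 0.73 FPKM in UL replicate 4. Cluster-9253.13509 had 0.52 FPKM in UM replicate 3, 0.42 FPKM in UL replicate 2 and 0.42 FPKM in Ck replicate 4. Cluster-9253.30886 had 0.09 FPKM in UM replicate 3 and 0.07 FPKM in UL replicate 2.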

How the results depend on the processing

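The list itself depended on single libraries and on scaling. Leaving out 1 library kept 39 to 99 of the 100 members (39 without UH replicate 3, 40 without UH replicate 4) and let 555 to 1316 clusters meet the rule, which loosens by construction; median ratio scaling let 1322 and quantile normalization 984 meet it, and each kept 83 members. Ranking by a ratio of FPKM where another library reached 1 FPKM kept 35, the most it could. A pseudocount of 0.1 kept 69. Some of the counts of called members below differed by over 1.5 times from those given earlier, and others stayed. They are out of the 44 tested members unless another number is stated. Shares of all clusters called are given beside them, in either direction. The counts for UH are largely fixed by the selection, and nothing is read from them. A pseudocount of 0.1 gave 2 between UL and Ck (0.0583% of all) and 17 between UH and UM (3.66% of all). With no filter, all 100 members entered, and 89, 100 and 68 were called for UH against Ck, UL and UM and 5 for UM against UL. The shares of all 135991 clusters were 1.33, 5.56, 0.384 and 0.0493%. A fit of UH and Ck alone gave 28 (3.25% of all). With 1 library left out the counts ran from 0 to 22 for UL against Ck, 14 to 39 for UH against UM and 1 to 23 for UM against UL; from 38 to 43 for UH against Ck; they stayed at 44 for UH against UL and at 0 for UM against Ck. Requiring 1 FPKM in at least 4 libraries outside UH, an alternative chosen after seeing the data, gave 0, 0 and 13 of 26 members for UL against Ck, UM against Ck and UM against UL. Of all 33620 clusters under that filter, 6, 42 and 1206 were called. The cause of these moves was not tested. The labels do not say that replicate numbers pair the libraries. A check showed no clear pairing, though it cannot exclude one. Same-numbered libraries had correlated deviations over 0.1 in 5 of 24 pairs (-0.28 to 0.26), and 4 of 16 libraries correlated best with their own number. The replicate block gave 0, 43, 44, 24, 0 and 14 members for UL against Ck, UH against Ck, UL and UM, and UM against Ck and UL. The shares of all clusters with it were 0.0139, 9.83, 27.6, 2.16, 0.0333 and 2.86%. Differences between UH and Ck were recomputed for the 27 named clusters, 324 in all. Of these, 25 moved by more than the spread between replicates, 19 of them with a pseudocount of 0.1. The direction turned in 0. The rule put all UH values of these clusters above all Ck values, so a turn was largely excluded by the selection. Nothing is read from that 0. At these depths, values under about 1 FPKM on clusters near 400 bases stand for few fragments.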
